A study of Mus musculus with 2 samples.

Results

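The Ly49 receptors of the mouse are encoded by the Klra genes, and the 9 genes described here are Klra1, Klra3, Klra4, Klra5, Klra6, Klra7, Klra8, Klra9 and Klra10. They were chosen by symbol, and all 9 had a row among the 32285 genes of the count matrices. Immune cells from spleens of C57BL/6 animals had been sequenced as single cells in droplets by their 3′ tags, in 1 library of wild type (WT) and 1 of conditional RPA1 knockout (CKO) genotype. RPA1 belongs to replication protein A, the complex that coats single-stranded DNA, and the labels give neither the Cre driver, the deleted exons, the age of the animals nor how many were pooled. Each genotype is 1 library, so the genotypes were not tested against each other and no replicate supports a difference, and every interval below is a 95% interval that covers counting error only. A fold apart was counted at 1.5.

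Ly49 proteins are C-type lectin-like receptors on the surface of natural killer (NK) cells, and most of them recognise class I major histocompatibility molecules. Inhibitory members carry a motif in the cytoplasmic tail that recruits the phosphatases SHP-1 (Ptpn6) and SHP-2 (Ptpn11), whereas activating members lack it and signal through the adaptors DAP12 (Tyrobp) and DAP10 (Hcst). Each NK cell switches on its own subset of the genes, so that neighbouring cells carry different combinations, a pattern known as variegated expression. Of the 9 genes, 7 encode inhibitory receptors, namely Klra1 (Ly49A), Klra3 (Ly49C), Klra5 (Ly49E), Klra6 (Ly49F), Klra7 (Ly49G), Klra9 (Ly49I) and Klra10 (Ly49J). The activating members are Klra4 (Ly49D) and Klra8 (Ly49H), the second of which recognises a glycoprotein of mouse cytomegalovirus.

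The 9 genes lie side by side on the minus strand of chromosome 6 in the natural killer gene complex (GRCm38, 129898996 to 130386874, a span of 487.879 kb). In order of position they are Klra5, Klra6, Klra4, Klra8, Klra9, Klra7, Klra10, Klra3 and Klra1, and the related genes Klra17 and Klra2 lie to either side. Klra2 and Klra17 had 0 UMIs (unique molecular identifiers, each counting 1 captured transcript molecule) in the NK cells of both libraries, which allows a share of cells with a UMI of up to 0.817% in the WT library and 0.345% in the CKO library.

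Of the 9 genes 7 share a stretch of start site sequence, shown here because co-detection of the genes in single cells is described below. Windows from 250 bases before to 50 bases after each annotated start were taken from RefSeq (GRCm38.p6), and a stretch of 60 bases was aligned, in which 41 bases were identical in Klra3, Klra4, Klra5, Klra6, Klra7, Klra8 and Klra9. Capitals mark those 41 bases. The sequences are written 5′ to 3′ on the minus strand and are given for the 5 members whose stretch lies wholly before the RefSeq start. They come from chr6:129913246-129913305 for Klra5, chr6:130027005-130027064 for Klra6, chr6:130067282-130067341 for Klra4, chr6:130129910-130129969 for Klra8 and chr6:130233343-130233402 for Klra7.
Klra5: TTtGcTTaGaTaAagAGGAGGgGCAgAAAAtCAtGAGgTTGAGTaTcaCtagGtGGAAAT
Klra6: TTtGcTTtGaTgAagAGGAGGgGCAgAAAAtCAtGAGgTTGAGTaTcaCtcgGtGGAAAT
Klra4: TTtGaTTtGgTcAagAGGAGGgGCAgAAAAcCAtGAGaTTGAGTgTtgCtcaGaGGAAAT
Klra8: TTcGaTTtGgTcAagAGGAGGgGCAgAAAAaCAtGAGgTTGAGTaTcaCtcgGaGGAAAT
Klra7: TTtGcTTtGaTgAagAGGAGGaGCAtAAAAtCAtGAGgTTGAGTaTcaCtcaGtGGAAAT

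The activating members Klra4 and Klra8 had the most mismatches to the Klra6 stretch, with 10 and 6 of 60 bases, and the inhibitory members Klra3, Klra5, Klra7 and Klra9 had 3, 3, 3 and 4. None of the 5 printed stretches overlaps a GENCODE exon, and that of Klra5 lies within the annotated span of its gene. The longest run found in at least 6 members was GAGGTTGAGTATCAC, 15 bases that occur in the windows of Klra3, Klra5, Klra6, Klra7, Klra8 and Klra9 and not in that of Klra4. On either strand it occurs in 8 of 32851 windows of this length (0.0244%), from 7 of 27025 genes, and the gene that is not a member is Gm52487. At the annotated starts of Klra1 and Klra10 the best match still differed at 37 and 34 of 60 bases. A match is a description of these letters and not a binding site.

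The targeted gene was examined first. In the NK cells Rpa1 measured 54.2 CPM (counts per 1000000 UMIs of the group of cells; 43.9 to 66.3) in the WT library and 50.5 CPM (43.8 to 57.9) in the CKO library, and in CD4 T cells 46.1 CPM (41.7 to 50.8) and 35.2 CPM (26.9 to 45.2). Because a 3′ tag need not lie in the deleted exons, these values leave unknown in which cells the gene was lost.

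Cells were gated on UMIs of marker genes other than the members. The NK gate held 367 of 11285 WT and 869 of 11317 CKO cells, 3.25% and 7.68%, with a median of 4542 and 4132 UMIs per cell. Ncr1 was found in 98.4% and 96.9% of cells and Cd3e in 1.09% and 0.345%. The gate used both genes and so largely fixed these shares. Eomes, which the gate did not use, was found in 73.0% and 71.6%. The 10 NK markers summed to 23425 CPM in the WT library and 23683 CPM in the CKO library, with 0 of 10 at 0. The gate genes Ncr1 and Klrb1c are among these 10. The 6 markers of type 1 innate lymphoid cells, which could fall into the same gate, summed to 189 and 73.9 CPM. The WT and CKO libraries shared 36 cell barcodes, 27 of them among the cells kept.

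The family as a whole was at nearly the same level in NK cells of the 2 libraries. Its 9 genes summed to 2888 CPM (2809 to 2969) in the WT library and 2833 CPM (2782 to 2886) in the CKO library, a CKO over WT ratio of 0.981 (0.949 to 1.01). At least 1 member was found in 326 of 367 WT cells (88.8%, 85.2 to 91.9) and 797 of 869 CKO cells (91.7%, 89.7 to 93.5). After every cell had been thinned to 2000 UMIs, these shares were 85.3% and 89.2%. All 9 members passed the minimum of 20 summed counts, and 0 were 1.5-fold higher or lower in the CKO library. Among all 9611 genes measured in these cells 5.62% were at least 1.5-fold higher and 3.74% at least 1.5-fold lower. The members' median log2 ratio was −0.10 against 0.00 over all genes.

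**Figure D1:**
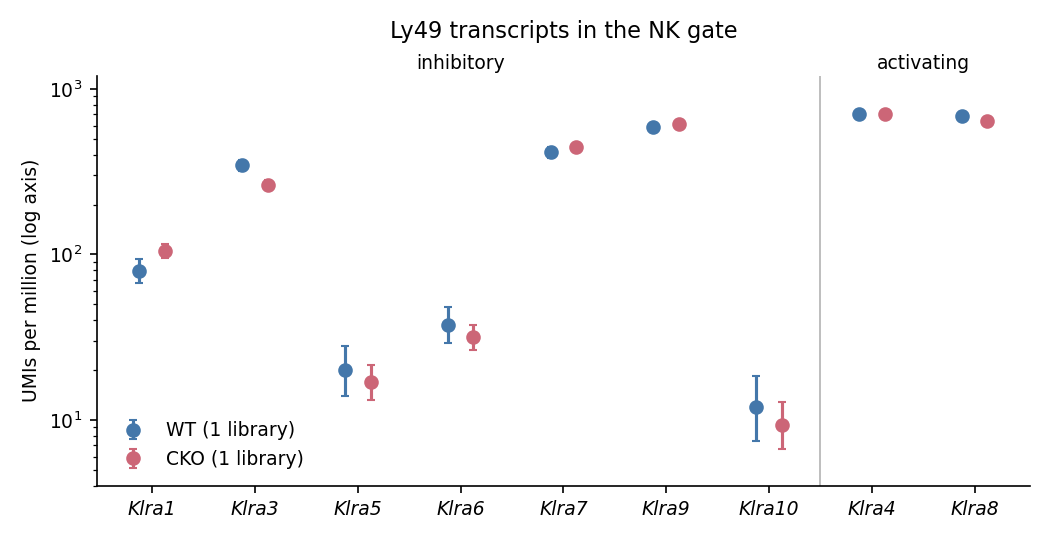
Level of each Ly49 gene in NK gate cells, in CPM on a log axis, in the 1 WT library (367 cells) and the 1 CKO library (869 cells), with Poisson 95% intervals that cover counting error only. Klra4, Klra8 and Klra9 lie near the top in both libraries, Klra10 is lowest, and the libraries part most clearly at Klra1 (79.3 and 105 CPM) and Klra3 (345 and 264 CPM).

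Klra4, the activating Ly49D, was the most abundant member. It measured 707 CPM (668 to 747) in the WT library and 703 CPM (677 to 729) in the CKO library, a ratio of 0.994 (0.929 to 1.06), and was found in 39.5% and 39.6% of NK cells. Cells that carried it carried much of it, with a median of 7 UMIs per carrying cell in both libraries, and 71.7% and 75.9% of carriers held 5 or more. The other activating gene, Klra8, measured 688 CPM (649 to 727) and 642 CPM (618 to 667), a ratio of 0.934 (0.872 to 1.0006), in 57.2% and 50.6% of cells. A Klra4 or Klra8 UMI was found in 70.8% of WT and 66.1% of CKO NK cells, and both genes in 25.9% and 24.2%. Cells with an activating member and no inhibitory one made up 4.09% (2.31 to 6.65) and 4.72% (3.41 to 6.35), or 7.22% and 7.44% after thinning.

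Klra9 and Klra3 encode Ly49I and Ly49C, which bind the class I molecule H-2Kb of C57BL/6 mice. Klra9 measured 587 CPM (552 to 624) in the WT library and 616 CPM (592 to 640) in the CKO library, a ratio of 1.05 (0.975 to 1.13). Klra3 was lower in the CKO library, with 264 CPM (248 to 280) where the WT library had 345 CPM (318 to 374), a ratio of 0.765 (0.692 to 0.846). The share of cells with a Klra3 UMI was lower there too, at 27.3% (24.3 to 30.4) against 37.1% (32.1 to 42.2), or 22.7% against 32.2% after thinning. Klra3 and Klra9 are hard to tell apart at the transcript end that a 3′ tag reads. Of 411 overlapping pieces of 90 bases from the last 500 bases of the Klra3 transcript (GENCODE vM21), 92.2% lay within 2 mismatches of Klra9, and 8.52% occurred exactly in another gene. The same 2-mismatch likeness to any other member held for 96.6% of Klra9 pieces, 81.3% of Klra10 pieces and 43.3% of Klra8 pieces, but for at most 4.87% of pieces of Klra1, Klra4, Klra5, Klra6 and Klra7. Summed, Klra3 and Klra9 gave 932 CPM in the WT library and 880 CPM in the CKO library, a ratio of 0.944 (0.890 to 1.001), and at least 1 of them was found in 69.5% and 68.9% of cells.

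Among the other inhibitory members, Klra7 stood at a middle level and the rest were low. Klra7 measured 413 CPM (383 to 444) and 446 CPM (426 to 467), a ratio of 1.08 (0.991 to 1.18), in 43.1% of WT and 45.9% of CKO cells. Klra1 was higher in the CKO library, with 105 CPM (95.6 to 116) where the WT library had 79.3 CPM (66.7 to 93.6), a ratio of 1.33 (1.10 to 1.62). Its carriers were not clearly more frequent, at 9.78% against 8.45% of cells, and they held more UMIs, with 51.8% of CKO and 35.5% of WT carriers at 5 or more. Klra6 measured 37.7 CPM (29.1 to 47.9) and 31.5 CPM (26.3 to 37.5), and Klra5 19.97 CPM (13.9 to 27.8) and 17.0 CPM (13.2 to 21.5). These genes differed in how their few UMIs were spread. Klra5 was found in only 6 WT and 19 CKO cells, at a median of 5.5 and 4 UMIs per carrier, whereas Klra6 carriers often held a single UMI (41.4% and 50.9% of them). Klra10 was the lowest, at 12.0 CPM (7.42 to 18.3) and 9.36 CPM (6.62 to 12.8), and 88.9% of its WT and 90.6% of its CKO carriers held 1 UMI. The ratios of Klra5, Klra6 and Klra10 were 0.851, 0.837 and 0.781, each with an interval that included 1.

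The order of the 9 levels was the same in both libraries, from Klra4 through Klra8, Klra9, Klra7, Klra3, Klra1, Klra6 and Klra5 to Klra10. The 3′ tag counts are 1 per captured molecule and were not scaled by transcript length. The intervals of the neighbours Klra4 and Klra8, and of Klra5 and Klra10, overlapped in the WT library, as did those of Klra8 and Klra9 in the CKO library.

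The other genes of the Ly49 system were measured in the same NK cells. Tyrobp, the adaptor of the activating members, was at 3462 and 3296 CPM, and Hcst at 605 and 607 CPM. Of the 13 measured adaptor and signalling genes, 0 were 1.5-fold apart in either direction, and the same held for 3 class I ligand genes, with H2-K1 at 2779 and 2524 CPM, and for 13 transcription factors of NK cells. Tcf7, a factor needed to switch on Klra1, had 101 CPM in the WT library and 76.1 CPM in the CKO library (ratio 0.753, 0.624 to 0.912). Of 17 other genes of the natural killer complex, 1 was higher and 0 were lower, a share near the 5.62% of all genes that were higher. That gene was Klrg1, an inhibitory receptor of mature NK cells, at 172 against 109 CPM (1.58, 1.35 to 1.87). Klrc1, which encodes the inhibitory NKG2A, was at 262 against 321 CPM (0.815, 0.735 to 0.904).

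NK cells commonly carried several members. After thinning to 2000 UMIs, which left out 7 WT and 9 CKO cells, a cell held a mean of 2.09 members in the WT library and 2.06 in the CKO library, with a median of 2 and a maximum of 6 in each. At least 2 members were found in 66.7% and 68.1% of cells. Cells without any member were more frequent than the product of the 9 single shares gives, at 14.7% (11.2 to 18.8) against 7.19% in the WT library and 10.8% (8.82 to 13.1) against 7.45% in the CKO library. Cells with 4 members were more frequent as well in the WT library, at 14.4% (11.0 to 18.5) against 9.03%, while the CKO interval of 8.39% to 12.6% included its product of 8.61%. Cells with 5 members were at 0.833% against 1.79% and at 1.40% against 1.67%, with intervals that included the product. Cells with 1 member were less frequent than the product in both libraries. They were at 18.6% (14.7 to 23.0) against 24.5% in the WT library and 21.0% (18.4 to 23.9) against 25.1% in the CKO library. In the WT library cells with 2 members were less frequent than the product, at 26.7% against 33.6%, and in the CKO library they matched it at 33.8%.

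**Figure D2:**
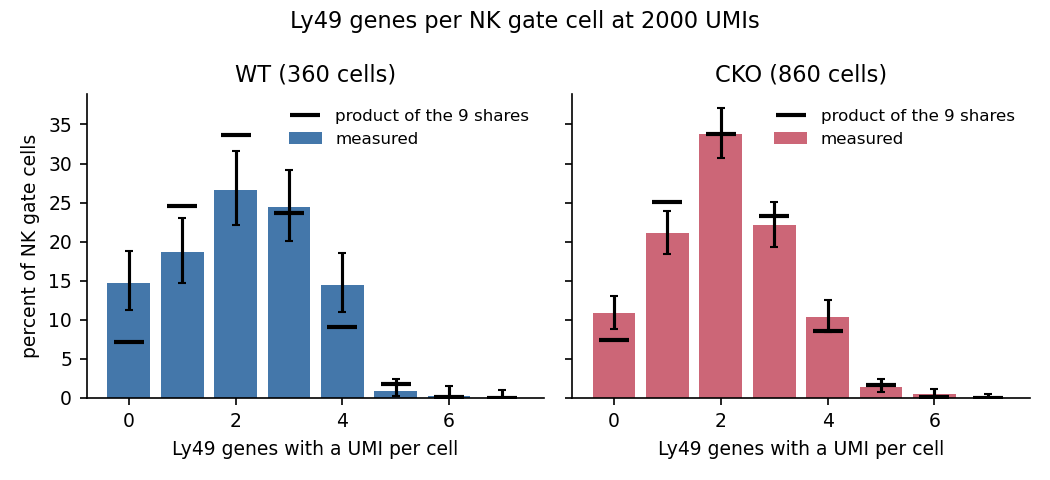
Share of NK gate cells (vertical axis, %) by the number of the 9 Ly49 genes found in a cell thinned to 2000 UMIs (horizontal axis), in the WT (360 cells) and CKO library (860 cells), with Clopper-Pearson 95% intervals, beside the share that the product of the single-gene shares gives. Cells with 0 members exceed the product in both libraries (14.7% against 7.19% and 10.8% against 7.45%).

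The receptor combinations were spread widely. For the 5 abundant members Klra3, Klra4, Klra7, Klra8 and Klra9 there are 32 possible combinations, and all 32 were seen in each library after thinning. The most frequent one with a receptor was Klra9 alone, in 8.33% of WT (5.69 to 11.7) and 11.7% of CKO cells (9.67 to 14.1). The product of shares gives 6.27% and 8.11%, of which the WT interval included its own. Next came Klra8 with Klra9, in 6.11% and 7.33%. Klra4 with Klra7 and Klra8 was found in 4.17% (2.35 to 6.78) and 5.23% (3.84 to 6.94) of cells, against products of 2.33% and 2.49%. Klra3 with Klra4 and Klra8 was found in 4.44% (2.56 to 7.12) and 2.33% (1.43 to 3.57), against 2.16% and 1.20%. Both triples were thus seen more often than the single shares give in both libraries.

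Some pairs were found together more often, and others less often, than the product of their shares. The 36 pairs were compared as descriptions, and 1 library's cells share their depth and free RNA. Klra4 and Klra8, the activating members, were together in 71 of 360 WT and 175 of 860 CKO cells, 1.11 times (0.869 to 1.40) and 1.25 times (1.07 to 1.44) the product. Klra7 with Klra8 gave 1.31 (1.03 to 1.63) and 1.21 (1.04 to 1.41). Mature NK cells were those with more UMIs of 5 mature than of 5 less mature markers. Within them alone Klra4 with Klra8 gave 1.03 (0.775 to 1.34) and 1.14 (0.959 to 1.35). Klra7 with Klra8 gave 1.22 (0.925 to 1.58) and 1.15 (0.970 to 1.36) there. These intervals included 1. All pair intervals are Poisson intervals of the number of cells with both genes. They are wider than intervals that hold the single shares fixed, so including 1 does not show that a pair matched the product. Klra1 with Klra4 gave 1.42 (0.755 to 2.43) from 13 WT cells and 1.63 (1.19 to 2.16) from 47 CKO cells, and 1.67 (1.18 to 2.29) in mature CKO cells. Klra1 with Klra6 gave 3.05 (1.39 to 5.78) from 9 CKO cells and 3.28 (1.32 to 6.75) in mature CKO cells, while 0 WT cells held both. Klra1 with Klra8 gave 1.08 (0.573 to 1.84) and 1.40 (1.03 to 1.87), and 1.34 (0.950 to 1.84) in mature CKO cells. Some pairs with Klra9 lay below the product. Klra4 with Klra9 gave 0.868 (0.642 to 1.15) and 0.816 (0.680 to 0.972), and Klra1 with Klra9 gave 0.748 (0.323 to 1.47) from 8 WT cells and 0.598 (0.375 to 0.905) from 22 CKO cells. In mature CKO cells these pairs gave 0.767 (0.626 to 0.930) and 0.581 (0.344 to 0.919). Klra3 with Klra9 gave 0.927 (0.679 to 1.24) and 0.826 (0.652 to 1.03), and in mature cells 0.832 (0.588 to 1.14) and 0.755 (0.583 to 0.962). The part of their alike transcript ends in these values was not tested. Not every pair with Klra9 was low, since Klra8 with Klra9 gave 1.09 and 0.985, Klra7 with Klra9 0.996 and 0.863, and Klra6 with Klra9 1.51 from 11 WT cells and 0.824 from 13 CKO cells. Klra4 with Klra7 gave 1.319 (1.004 to 1.701) in the WT library and 1.196 (1.01 to 1.407) in the CKO library. Klra3 with Klra4 gave 1.34 (1.015 to 1.736) and 1.188 (0.951 to 1.465). In mature cells the intervals of Klra4 with Klra7 and of Klra3 with Klra4 included 1 in both libraries. In the WT library all intervals given for the whole gate included 1, except those of Klra7 with Klra8, Klra4 with Klra7 and Klra3 with Klra4.

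**Figure D3:**
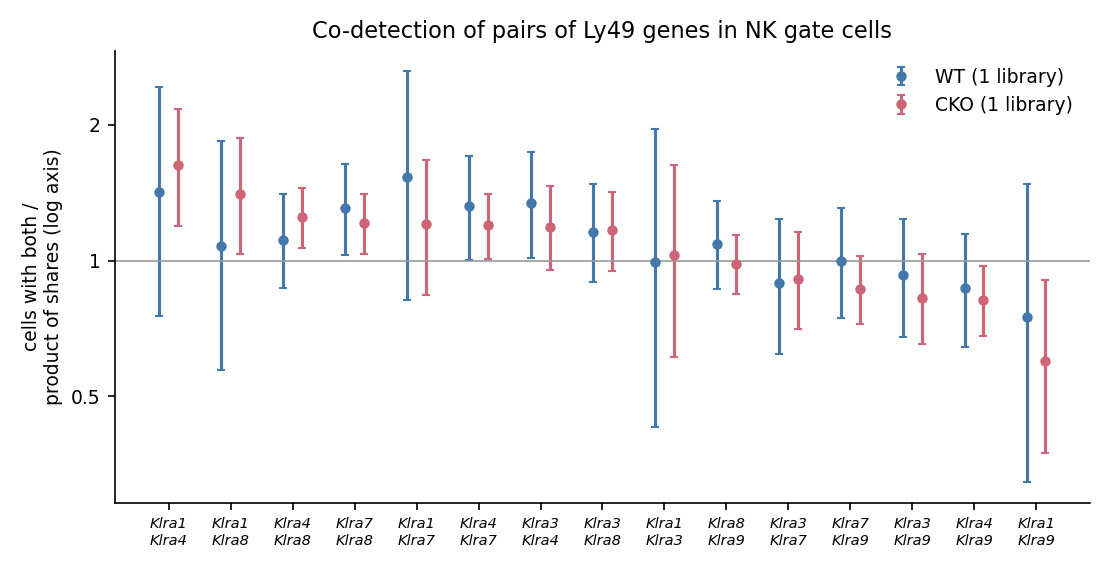
Cells with both genes over the number that the product of the shares gives (vertical axis, log scale), for the 15 pairs of Klra1, Klra3, Klra4, Klra7, Klra8 and Klra9 in NK gate cells thinned to 2000 UMIs, with 95% counting intervals, in the WT and CKO library. Klra1 with Klra4 is highest in the CKO library (1.63) and Klra1 with Klra9 is lowest in both (0.748 and 0.598).

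NK cells without any member more often carried Klrc1, whose NKG2A receptor reads class I molecules by another route. A Klrc1 UMI was found in 40 of 41 WT cells with none of the 9 members (97.6%, 87.1 to 99.9) and in 132 of 326 WT cells with at least 1 (40.5%, 35.1 to 46.0). In the CKO library the shares were 51 of 72 (70.8%, 58.9 to 81.0) and 351 of 797 (44.0%, 40.6 to 47.6). Thinned to 2000 UMIs, Klrc1 was found in 69.8% (55.7 to 81.7) against 29.97% of WT and 48.4% (37.9 to 59.0) against 28.8% of CKO cells. Less mature NK cells, with the higher less mature marker sum, held more Klrc1 than mature ones, at 401 against 291 CPM (WT) and 337 against 236 CPM (CKO). Cells without a member were more frequent there too, at 37.0% against 5.86% and 30.7% against 5.58% after thinning. The part of maturation in the Klrc1 difference was not tested. Cells with none of Klra3, Klra9 and Klrc1 made up 12.0% of WT and 14.8% of CKO NK cells, or 21.7% and 26.2% after thinning.

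Genes were then compared between NK cells with and without each abundant member, after thinning, and 3 genes per direction were taken by size. Il7r, the interleukin 7 receptor of less mature and innate lymphoid cells, was among the lower genes of carriers of Klra3, Klra7, Klra8 and Klra9. With Klra9 it was at 19.5 against 136 CPM in the WT (0.143, 0.0505 to 0.332) and 3.65 against 46.8 CPM in the CKO library (0.0780, 0.0155 to 0.244). Klra9 carriers also held more Ly6c2, at 526 against 235 CPM and 488 against 269 CPM, and less of the chemokine Xcl1, at 0.284 and 0.469 times the level of the other cells. Klra4 carriers held less Klrc1, at 148 against 467 CPM (0.316, 0.219 to 0.447) and 115 against 372 CPM (0.308, 0.237 to 0.396), and less Klrb1b, an inhibitory receptor of the NKR-P1 family, at 0.181 and 0.277 times. S100a4, a calcium-binding protein, was at 0.0540 times (0.00640 to 0.203) and 0.176 times (0.0778 to 0.350) in Klra4 carriers, from 2 WT and 9 CKO carrier UMIs. Il7r likewise had 1 carrier UMI in the CKO library with Klra3, Klra7 and Klra8, and 3 with Klra9. Klra8 carriers held more Cmah, which makes a sialic acid of the cell surface, at 6.01 times (2.81 to 14.8) in the WT library and 2.07 times (1.46 to 2.96) in the CKO library. Klra3 carriers held less Ltb, at 0.394 and 0.383 times. Tmem176a was lower in Klra7 carriers, at 0 against 31.5 CPM in the WT and 1.54 against 20.6 CPM in the CKO library. Il7r and Tmem176a are among the markers of type 1 innate lymphoid cells summed above. The part of such cells in these differences was not tested. Xcl1 and Ltb are also markers of the less mature range used below, and the genes higher with Klra3 or Klra7 rested on at most 30 UMIs of the carriers in a library.

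The members differed with the maturation range of the NK cells. A cell was placed by its UMI sums over 5 mature markers (Itgam, Klrg1, S1pr5, Cma1 and Zeb2) and 5 less mature ones (Cd27, Emb, Xcl1, Ltb and Tcf7), which is a range and not a type. The mature sum was the higher one in 239 of 367 WT (65.1%) and 670 of 869 CKO cells (77.1%), the less mature sum in 103 and 168, and 52 WT and 90 CKO cells lay within 1 UMI of equal sums. In the mature range the 9 members summed to 3518 CPM in the WT library and 3175 CPM in the CKO library, against 1669 and 1925 CPM in the less mature range. Cells with at least 1 member made up 94.1% against 63.0% of WT and 94.4% against 69.3% of CKO cells after thinning. The mature cells thus held the higher level in both libraries, by 2.11 and 1.65 times. They were not deeper sequenced, with a median of 4363 against 5370 UMIs in the WT library and 3902 against 5664 UMIs in the CKO library.

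The size of that difference set the members apart. Klra9 led among the abundant ones, at 3.67 times (3.05 to 4.46) in the WT library and 2.66 times (2.35 to 3.01) in the CKO library. Klra3 was 2.03 and 2.34 times, Klra8 2.14 and 1.69 times, Klra4 1.94 and 1.37 times and Klra7 1.76 and 1.44 times higher in the mature range. Klra1 went the other way, at 0.694 (0.468 to 1.04) in the WT library and 0.727 (0.591 to 0.898) in the CKO library. Klra5 gave 0.578 and 0.574, but its CKO value turned to 1.45 when cells were split by Itgam against Cd27 alone and to 1.13 with a stricter NK gate. By Itgam against Cd27 alone Klra3 was at 1.33 and 2.79 times, Klra8 at 1.35 and 1.77 times, and Klra4 at 1.30 times (1.11 to 1.52) in the WT library and 1.06 times (0.950 to 1.18) in the CKO library, where its mature excess was lost. Klra9 stayed at 3.56 and 2.44 times. Klra6 lay on both sides of 1, at 1.32 and 0.844, and its WT value turned to 0.5996 under that split, with intervals that included 1.

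**Figure D4:**
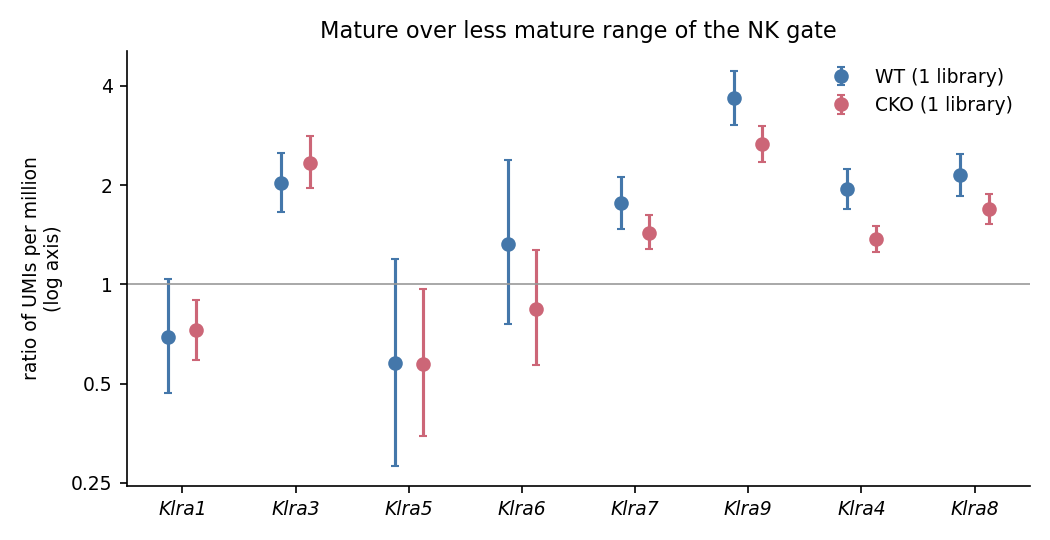
Level in the mature range over the less mature range of NK gate cells (log axis) for 8 members, Klra10 left out for its few UMIs, in the WT and CKO library with 95% counting intervals. Klra9 is highest in both libraries (3.67 and 2.66) and Klra1 lies below 1 in both (0.694 and 0.727).

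Within each range the genotypes were set side by side, since the CKO library held more cells of the mature one. Klra1 was higher in the CKO library in both, at 1.68 times (1.27 to 2.26) in the mature and 1.61 times (1.15 to 2.28) in the less mature range. Klra3 was lower in both, at 0.758 times (0.676 to 0.852) and 0.658 times (0.512 to 0.847). Klra4 was at 0.883 times in the mature but 1.25 times (1.08 to 1.46) in the less mature range. The summed members were at 0.902 times (0.869 to 0.938) and 1.15 times (1.07 to 1.25). Split by Itgam against Cd27 alone, the values in cells with Itgam and in cells with Cd27 were 0.916 times (0.872 to 0.962) and 0.892 times (0.821 to 0.971) for the sum, so the less mature excess of the CKO library turned. Klra1 was then at 1.35 times (0.959 to 1.94) and 0.956 times (0.655 to 1.41), so its excess was lost in the cells with Cd27 and its interval included 1 in both. Klra3 was lower in the CKO library under this split as well, at 0.810 times (0.694 to 0.947) and 0.387 times (0.287 to 0.522), and Klra4 was at 0.927 times (0.835 to 1.03) and 1.14 times (0.972 to 1.33). These differences were not tested.

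Outside NK cells the members were found in T cells with innate features. The NKT-like gate (αβ T cells with Klrb1c or Zbtb16 UMIs and no Cd8) held 86 WT cells and 1 CKO cell, so it is described in the WT library. Its 9 members summed to 611 CPM (552 to 674) in 21 of 86 cells (24.4%), and 16 of those carried 2 or more. Only inhibitory members were seen there. Klra1 led at 239 CPM (203 to 280) in 12 cells, with 30.1% of its UMIs in 1 cell, followed by Klra7 at 153 CPM (125 to 187) in 11 cells and Klra6 at 115 CPM (90.5 to 144) in 12. Klra9 was found in 10 cells, Klra5 in 6 and Klra3 in 3. Klra4 and Klra8 had 0 UMIs in these 86 cells, which allows a share of cells with a UMI of up to 3.49%, whereas 39.5% and 57.2% of WT NK cells held them. The single CKO cell held 10 Klra4 and 11 Klra7 UMIs.

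The Ly49-carrying NKT-like cells also differed in other genes. They held more Fcer1g, the γ chain of Fc receptors, at 43.9 times (20.7 to 111) the level of the other 65 cells, more Tyrobp (10.3 times, 5.41 to 21.2) and more Klrd1 (3.77 times, 2.84 to 5.04). Ly6c2 was at 2.77 times, while Cxcr6, a chemokine receptor of tissue-resident and NKT cells, was at 0.180 times (0.114 to 0.273). Their Ncr1 level was 73.4 CPM, against 0 UMIs in the others, and the part of NK cells caught in the gate was not tested.

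In the γδ T gate (CD3 and Trdc UMIs, no Trac) the members were found mostly in cells that also held an NK marker. The sum was 581 CPM (488 to 687) in 39 WT and 553 CPM (505 to 605) in 121 CKO cells, with a carrier share of 9 of 39 (23.1%) and 42 of 121 (34.7%), or 15.4% and 27.3% after thinning. Among cells with an Ncr1 or Klrb1c UMI 8 of 19 WT and 35 of 53 CKO cells (66.0%) carried a member, and among those without one 1 of 20 and 7 of 68 did. The sums without NK markers were 26.7 and 49.1 CPM, and with a γ receptor UMI required they were 158 and 228 CPM. NK cells themselves held Trdc UMIs in 30.2% of WT and 36.7% of CKO cells, and 1 WT and 14 CKO cells lay in both gates. How many of these γδ gate cells are NK cells was not tested.

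Both activating and inhibitory members were found in the γδ gate. Klra4 measured 131 and 132 CPM, Klra7 93.3 and 113 CPM, and Klra8 187 and 96.3 CPM, where the WT value rests on 3 cells and 47.7% of its UMIs came from 1 of them. Klra10 had 1 UMI in each library. Of the 8 members past the count minimum, 2 were 1.5-fold higher in the CKO library, Klra5 (2.92, 0.913 to 14.9) and Klra9 (1.77, 0.930 to 3.70). Another 2 were lower, Klra6 (0.411, 0.173 to 1.02) and Klra8 (0.516, 0.354 to 0.762). Among the 6121 genes measured in this gate 10.7% were higher and 17.3% lower by that fold, and the members' median log2 ratio was 0.22 against −0.13. CKO carriers held Ncr1 at 69.2 times (26.5 to 257) and Tyrobp at 22.2 times (16.1 to 31.5) the level of the other CKO γδ cells, and Cd163l1, a scavenger receptor of γδ T cells, at 0.0798 times.

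**Figure D5:**
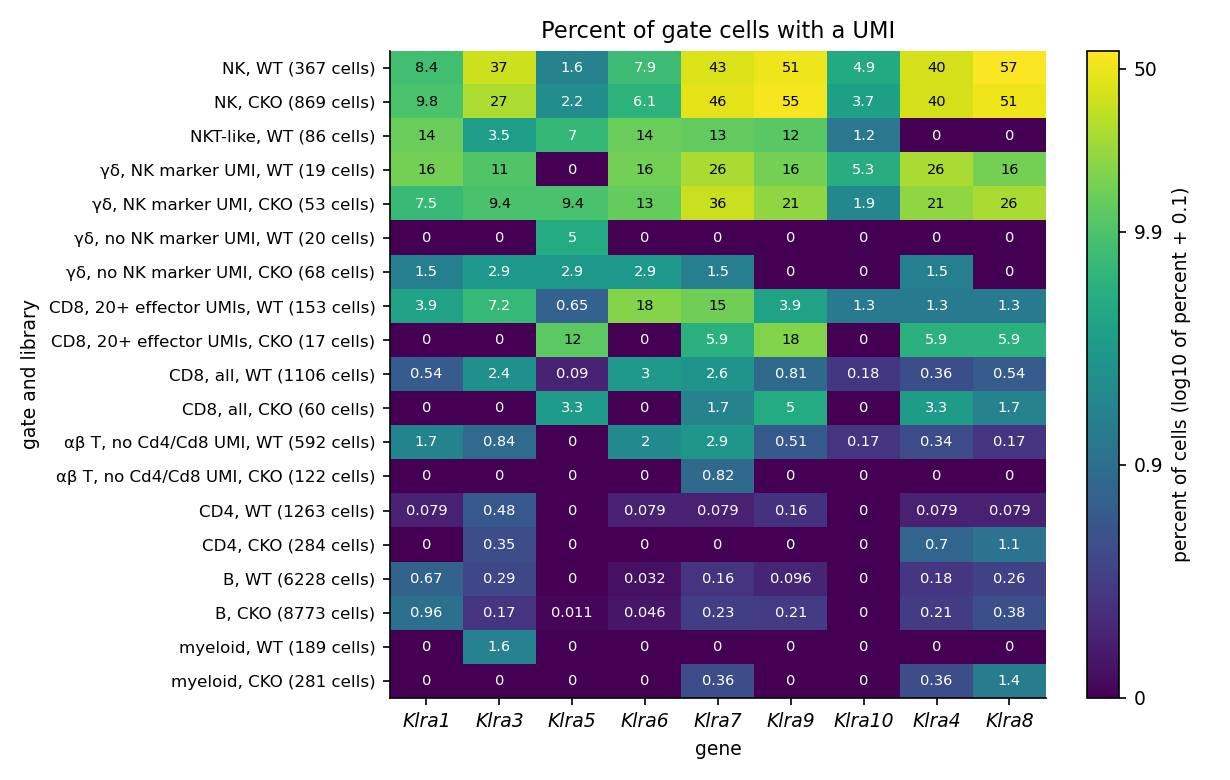
Share of cells with a UMI of each Ly49 gene (colour, log10 of percent plus 0.1) by gate and library, without the single CKO NKT-like cell. NK cells carry nearly all members in both libraries, WT NKT-like cells carry Klra1, Klra6 and Klra7 but neither Klra4 nor Klra8, and CD4 T, B and myeloid cells are near the floor.

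CD8 T cells carried another subset, led by Klra6, Klra7 and Klra3. In the WT library 82 of 1106 CD8 T cells (7.41%, or 3.797% after thinning) held a member, at 37.9 CPM (33.97 to 42.1). Klra6 was found in 33 cells (11.2 CPM), Klra7 in 29 (8.73 CPM) and Klra3 in 26 (9.71 CPM), but Klra9 in 9, Klra8 in 6 and Klra4 in 4. Among the 153 cells with at least 20 UMIs of Ccl5, Nkg7, Cxcr3 and Il2rb, genes of memory and effector cells, 50 (32.7%) held a member, and Klra6 was found in 28 (18.3%) and Klra7 in 23 (15.0%). These 153 cells were deeper, with a median of 10067 UMIs against 7886.5 in all WT CD8 T cells. Their shares are given without thinning, and the part of depth was not tested. Most carriers held 1 member, 56 of 82, and 26 held 2 or more, whereas 49 of 326 carriers among WT NK cells held 1. Each single gene was much rarer in CD8 T cells than the abundant members were in NK cells. No product of shares was taken for CD8 T cells, so these counts do not compare co-detection.

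WT CD8 carriers held more transcripts of memory and innate receptors than other CD8 cells. Ccl5 was at 3.38 times (3.22 to 3.56), Il2rb at 3.57 times, Klrk1 at 4.28 times and Fcer1g at 43.1 times (25.5 to 76.6). Ikzf2, which encodes the factor Helios, was at 3.73 times (3.08 to 4.49). Some of these folds rest on few cells, since Ikzf2 was found in 29.3% of carriers and 19.0% of the others, and Fcer1g in 17.1% of carriers and 1.56% of the others, whereas Il2rb was found in 81.7% and 35.0%. The NK markers Klrb1c and Ncr1 were at 22.5 times and 20.4 times, from 11 and 6 UMIs in 3.66% and 1.22% of carriers, and their part in these values was not tested. Lef1 of naive cells was at 0.664 times and the integrin Itgae at 0.172 times. The CKO library held 60 CD8 T cells, of which 5 held a member, at 80.6 CPM with 56.8% of the UMIs in 1 cell. That level was 26.2 CPM without cells that held NK markers and 129 CPM with no doublets removed, and Klra6 and Klra3 had 0 UMIs there, which allows a share of up to 5% of cells.

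αβ T cells without a Cd4 or Cd8 UMI, outside the NKT-like gate, held members in 25 of 592 WT cells (4.22%), led by Klra7 in 17, Klra6 in 12 and Klra1 in 10 cells. In the CKO library 1 of 122 did (0.820%). These cells had a median of 5754.5 and 5093 UMIs, and the part of depth in their lack of a Cd4 or Cd8 UMI was not tested.

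The level in cells that should lack the genes gave the background. A member UMI was found in 12 of 1263 WT CD4 T cells (0.950%), 6 of 284 CKO CD4 T cells (2.11%), 104 of 6228 WT B cells (1.67%), 191 of 8773 CKO B cells (2.18%), 3 of 189 WT and 6 of 281 CKO myeloid cells. After thinning the shares were 0.238% and 0% in CD4 T cells and 0.695% and 1.02% in B cells. The B cells had a median of 4582 WT and 4308 CKO UMIs, close to those of NK cells. The shares in NK, NKT-like and γδ cells, and in WT CD8 T cells, lay above this level. For γδ cells without NK markers the share was 1 of 20 WT and 7 of 68 CKO cells, or 0% and 5.88% after thinning. Without thinning, αβ T cells without Cd4 or Cd8 lay above this level in the WT library (25 of 592) and below it in the CKO library (1 of 122).

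Klra1 stood apart in this background. Its B cell level was 1.85% (1.32 to 2.57) of its NK cell level in the WT library and 2.07% (1.65 to 2.57) in the CKO library, while Klra3, Klra4, Klra7, Klra8 and Klra9 lay between 0.0344% and 0.159%. Klra1 was found in 42 WT and 84 CKO B cells, with at most 2 and 4 UMIs in a cell. Those cells held more Sox4, a factor of early B cells, at 7.05 times (5.02 to 9.63) in the WT library and 3.81 times (3.02 to 4.74) in the CKO library, more Myb at 4.06 and 4.37 times, and more Vpreb3, a gene of immature B cells, at 2.08 and 1.99 times. CKO carriers also held 3615 UMIs of the haemoglobin gene Hbb-bs, 56.9 times the level of other B cells, and WT carriers 0. These UMIs came from 2 CKO carriers (2.38%, against 2.05% of other CKO B cells with a Hbb-bs UMI). The part of Hbb-bs in these values was not tested. B cells with a Klra8 UMI held Myb at 1.24 times (0.254 to 3.63) in the WT library and 0.162 times (0.00410 to 0.904) in the CKO library. Sox4 was at 0 UMIs in the 16 WT and at 0.974 times (0.391 to 2.01) in the 33 CKO cells of this kind.

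The members' UMIs were spread over the gates unlike in the 2 libraries. NK cells held 75.0% of all member UMIs in the WT library and 90.02% in the CKO library. Klra4 and Klra8 came mostly from NK cells, at 90.8% and 89.99% in the WT library and 90.7% and 91.9% in the CKO library. Klra9 did as well, at 87.7% and 94.6%, and in the CKO library so did Klra3 (91.6%) and Klra10 (92.7%). Klra1 and Klra6 did not in the WT library. NK cells held 28.3% of its Klra1 UMIs and NKT-like cells 31.8%, and for Klra6 NK cells held 19.0%, CD8 T cells 29.7% and NKT-like cells 21.6%. Another 23.4% of WT Klra1 and 26.8% of WT Klra6 UMIs lay outside the 8 gates. In the CKO library NK cells held 69.8% of Klra1 and 74.4% of Klra6 UMIs. The gates differed in size, with 367 WT and 869 CKO NK cells, 86 and 1 NKT-like cells and 1106 and 60 CD8 T cells. The part of gate size in these shares was not tested.

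The genes most like the summed members across 8 gates of the 2 libraries (16 points, of 7400 genes compared) were found by Pearson correlation of log2 CPM. Klre1 (r = 0.991) and Klrc2 (0.989), both killer lectin-like receptor genes of the same complex, came first, followed by Arl4d (0.983) and Ctla2b (0.979). Tbx21 and Itga2 (both 0.970), a transcription factor and an integrin of NK cells, and S100a10 (0.942) were also among the first 10, as were the gate genes Klrb1c, Ncr1 and Ccl5. The points share their libraries and gates, some gates hold few cells, and the correlation is a description.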

How the data were processed

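The deposited values are UMI counts per gene and barcode of 1 WT and 1 CKO spleen library, not normalized by the authors, as the file headers and whole numbers show. Per the submitters' processing notes the genome was mm10 and the tools were Seurat 4.0.3 and Cell Ranger 5.0.0; the matrix headers give Cell Ranger 6.0.2, and the 3′ kit was version 3.1 per the labels' protocols. The WT library held 13291 barcodes and 84240951 UMIs (median 5355) and the CKO library 12958 barcodes and 76910129 UMIs (median 4616).

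Cells with 200 to 6000 genes and under 10% mitochondrial UMIs were kept. Scrublet (scanpy 1.11.5) scored doublets per library, and the highest scores, up to an expected rate of 0.8% per 1000 cells and their ties, removed 1394 WT and 1293 CKO cells. Gates were set by UMIs of marker genes without the members. The NK gate needed 2 UMIs of Ncr1 and Klrb1c, at most 1 of Cd3d, Cd3e and Trac, at most 2 of B cell and at most 3 of myeloid markers, and the T cell gates 2 UMIs of Cd3d, Cd3e and Cd3g. All cell groups were rebuilt from counts, which alone can make them differ from the study's.

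UMIs were summed per gate and library. CPM carries exact Poisson, shares Clopper-Pearson and ratios of levels exact conditional binomial 95% intervals. Pair values over the product carry Poisson 95% intervals of the number of cells with both genes. No test was made, and whether a library pools several mice is not given. A count of 0 was set to a floor of 3 counts over the gate, or limits a share to 3 cells of the gate. Intervals and floors cover counting error only, and treat the UMIs of 1 cell as independent. Log2 ratios used a pseudocount of 1 CPM and genes with at least 20 summed counts. Cells were thinned to 2000 UMIs for shares and co-detection. Named were all members, the listed genes of their system, the 10 genes most alike, and the 3 genes per direction most different with each member carried by at least 50 cells in both libraries (pseudocount 20 CPM). The members and lists were chosen with earlier results of these data known. Alternatives were the thinning depth, filters, doublet removal, gates, maturation markers, scaling and shared barcodes. Added after seeing the data were the split of the γδ gate, the CD8 gate as a whole, the αβ T cells without Cd4 or Cd8, the genotype ratios within maturation ranges by either split, and the joint level of Klra3 and Klra9. Scripts were tested on simulated data and used matplotlib 3.10.9, scipy 1.17.1, numpy 2.4.6 and pandas 2.3.3 under Python 3.11.15.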

Additional observations from a re-analysis of the deposited data

How the results depend on the processing

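Most of the recomputed values are levels or shares, which have no direction to change. Of 70 recomputed values of the main results 55 moved by less than their counting interval, 15 moved beyond it and 0 changed direction. Of 329 values of single genes 298 moved less than that, 29 moved beyond it and 2 more changed direction from an interval clear of 1. The latter were the mature over less mature ratio of Klra5 in CKO cells, at 1.45 by Itgam against Cd27 alone and 1.13 with a stricter NK gate. Another 2 whose interval included 1 also crossed it, the WT mature over less mature ratio of Klra6 (0.5996 by Itgam against Cd27 alone) and the CKO over WT ratio of Klra5 (1.05 as a mean over cells). Thinned to 1000 UMIs, at least 1 member was found in 79.1% of WT and 82.5% of CKO NK cells, and at least 2 in 50% and 51.8%, against 73.2% and 72.7% at 3000 UMIs, so these shares are limited by depth. The WT mature over less mature ratio of the sum was 1.55 by Itgam against Cd27 alone. The γδ gate level was 158 CPM in the WT and 228 CPM in the CKO library with a γ receptor UMI required, and 26.7 and 49.1 CPM without NK markers. The CD8 level was 45.1 and 129 CPM with no doublets removed, and 26.2 CPM in the CKO library without NK markers. A wider NKT-like gate gave 539 CPM in the WT library. With at least 100 summed counts, 2.56% of genes were 1.5-fold apart in NK cells, against 9.35%. Causes were not tested beyond what each setting changes. No paired analysis was possible because each genotype has 1 library. Another scaling of the libraries by their median ratio changed values by a factor of 1.0003.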
